A study of Mus musculus with 5 samples.

Results

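Antigen presentation and the interferon response were followed through 37 genes, picked by name from the 55573 genes of the deposited expression tables. The list held 10 genes of the MHC class I pathway, 5 genes of MHC class II and 22 interferon-related genes, with the immune checkpoint ligand gene Cd274 counted among the interferon-related genes. All 37 names were found once each in the tables, and all 37 passed the filter on low counts. The levels come from RNA sequencing of total RNA from 3 tumours of Th-Cre:MYC mice and from 2 normal pancreata of wild-type littermates. The tumour mice came from crossing TH-Cre mice with CAG-STOPflox/flox-MYC mice, so that the MYC transgene sat behind a floxed stop and was freed by a Cre driven from the tyrosine hydroxylase promoter, which is used by catecholamine-producing cells. Tumours were followed by ultrasound. Tumour replicates 1 and 2 have the number 86 in their titles while tumour replicate 3 has another, and it is not stated if both 86 tumours grew in one mouse. The normal pancreata were perfused with an RNase inhibitor before they were taken out, which the labels do not state for the tumours. Age, sex and strain are not in the labels.

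MHC class I molecules carry peptides of proteins made inside the cell to its surface, where CD8 T cells read them. The peptides are cut by the proteasome, pumped into the endoplasmic reticulum by the TAP transporter and loaded onto a heavy chain that is paired with beta-2 microglobulin. MHC class II molecules show peptides of proteins taken up from outside, mainly on dendritic cells, macrophages and B cells. Interferons switch on most of these genes, together with a wide set of antiviral genes, through STAT and IRF factors that bind short DNA elements near the gene starts.

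The interferon-stimulated response element (ISRE) was looked for in promoter windows from RefSeq on GRCm38.p6, running from 250 bases before to 50 bases after the gene start. Of the 37 genes, 28 had a window in that table. The letters GAAANNGAAA, or TTTCNNTTTC for the other strand, stood in a window of 11 of these 28 genes, against 3.99% of all 27025 genes in the table. They were in 10 of 18 interferon-related genes, in 1 of 8 class I genes, which was B2m, and in 0 of 2 class II genes. A second element, TTCNNNGAA, which reads the same on both strands, stood in windows of 6 of the 28 genes, against 9.55% of all genes. The letters CCAAT or ATTGG, the core of an element in class II promoters, stood in windows of 13 of the 28 genes, against 41.1% of all genes. The motifs are letter matches and were not tested as binding sites. Of the genes with a window that were lower in tumour in the test described below, 3 of 5 held the ISRE letters, as did 0 of 2 genes that were higher and 8 of 21 genes that did not pass. Shown 5′ to 3′ on the strand of the gene are 3 genes that were lower in tumour and Isg15, a classical interferon target that did not pass the test, with the ISRE letters in capitals. B2m lies at chr2:122147437-122147736 on the plus strand, and its single match begins 139 bases before the start. Psmb10 lies at chr8:105938343-105938642 on the minus strand and has no match. Bst2 lies at chr8:71537423-71537722 on the minus strand, with 2 overlapping matches that begin 130 bases before the start. Isg15 lies at chr4:156200769-156201068 on the minus strand, with 3 overlapping matches that begin 78 bases before the start.
B2m: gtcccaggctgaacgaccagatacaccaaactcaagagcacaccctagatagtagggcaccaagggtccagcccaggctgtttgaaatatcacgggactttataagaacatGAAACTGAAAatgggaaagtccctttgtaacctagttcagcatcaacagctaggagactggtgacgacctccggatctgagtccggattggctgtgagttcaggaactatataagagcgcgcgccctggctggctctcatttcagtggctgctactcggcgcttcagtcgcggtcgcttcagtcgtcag
Psmb10: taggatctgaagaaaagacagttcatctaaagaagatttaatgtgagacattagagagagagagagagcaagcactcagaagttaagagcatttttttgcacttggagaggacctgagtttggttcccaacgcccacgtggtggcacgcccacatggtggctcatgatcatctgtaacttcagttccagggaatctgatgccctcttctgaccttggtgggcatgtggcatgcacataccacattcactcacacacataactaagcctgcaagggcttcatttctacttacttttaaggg
Bst2: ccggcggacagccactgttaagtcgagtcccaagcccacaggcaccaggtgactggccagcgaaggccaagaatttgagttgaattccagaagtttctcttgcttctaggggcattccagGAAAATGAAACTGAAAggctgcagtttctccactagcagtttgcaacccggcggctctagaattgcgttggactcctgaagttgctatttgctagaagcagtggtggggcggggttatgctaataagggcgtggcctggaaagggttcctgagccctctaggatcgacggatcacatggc
Isg15: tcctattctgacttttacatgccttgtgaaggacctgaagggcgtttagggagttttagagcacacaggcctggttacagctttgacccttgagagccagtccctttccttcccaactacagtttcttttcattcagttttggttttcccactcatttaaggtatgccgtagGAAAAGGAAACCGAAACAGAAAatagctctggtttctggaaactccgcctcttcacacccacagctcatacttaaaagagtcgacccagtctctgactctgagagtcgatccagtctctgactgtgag

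The tumour libraries held 6611967 to 15074489 estimated counts and the normal libraries 48848987 and 51669489. Most counts of normal pancreas belong to digestive enzymes of acinar cells, and the TMM scaling factors, which correct for this, were 2.19 to 2.57 in tumours and 0.263 and 0.271 in normal pancreas. The markers of the labelled tissues stood on the labelled sides. The 9 neuroendocrine markers summed to 10030 to 23370 CPM (counts relative to library size, scaled by TMM) in tumours, against 25.3 and 29.1 CPM in normal pancreas. The acinar genes summed to 40 to 2622 CPM in tumours, with the highest value in tumour replicate 3, against 3265000 and 3388000 CPM in normal pancreas. The small TMM factors of the normal libraries raise the CPM of all genes there by the same multiple. All replicate pairs differed by more than sampling noise. Nothing in the labels says that the tumours came from separate mice, so the p-values here cover only sample-to-sample spread, part of which may be technical. The numbers in the library descriptions run in separate series for tumours and normal pancreata, and their meaning is not stated. Depth also splits by group. Any technical difference between the series cannot be told apart from tissue.

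Of the 37 genes, 3 were higher in tumour, 7 were lower and 27 did not pass the test (edgeR quasi-likelihood test, adjusted p under 0.05 over 16810 genes). These shares of 8.11% and 18.9% stood beside 39.2% of all genes tested that were higher and 27.8% that were lower, or 67.0% called in either direction, so that neither count exceeded its background. The median log2 fold change of the 37 genes was 0.02, and that of all genes tested was 0.38. In CPM, every tumour lay above both normal pancreata for 7 genes (18.9%) and below both for 11 (29.7%), against 46.8% and 34.2% of all genes tested. The genes that were higher were Usp18, Cd274 and Ifit2. The genes that were lower under TMM scaling were Psmb10, Tap2 and B2m of the class I pathway, H2-Eb1 and Cd74 of class II, and the interferon-related Bst2 and Gbp2, of which only Psmb10 stayed below 0 with library sizes from total counts alone. That scaling moved each of the 37 log2 fold changes up by 3.06 to 3.21 and put the median of all genes at 3.55.

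**Figure D1:**
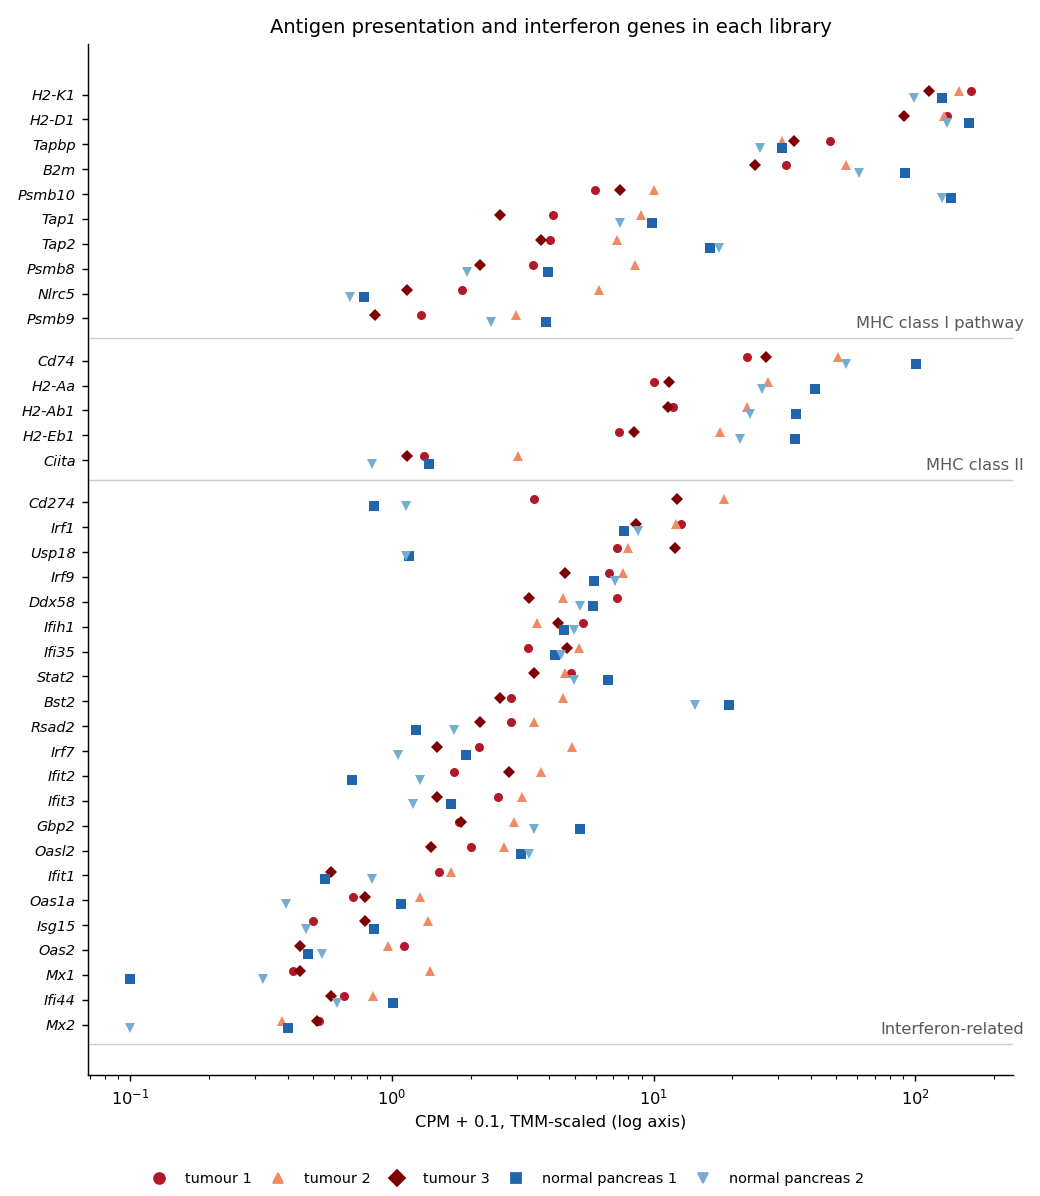
CPM plus 0.1 on a log axis for each of the 37 genes in each library, with 3 tumours (round, triangular and diamond points) above 2 normal pancreata (square and inverted triangular points) in each row. At this TMM scaling, Psmb10, Tap2 and Bst2 have all tumour points left of both normal points, and Usp18 and Cd274 have all tumour points right of them.

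**Figure D2:**
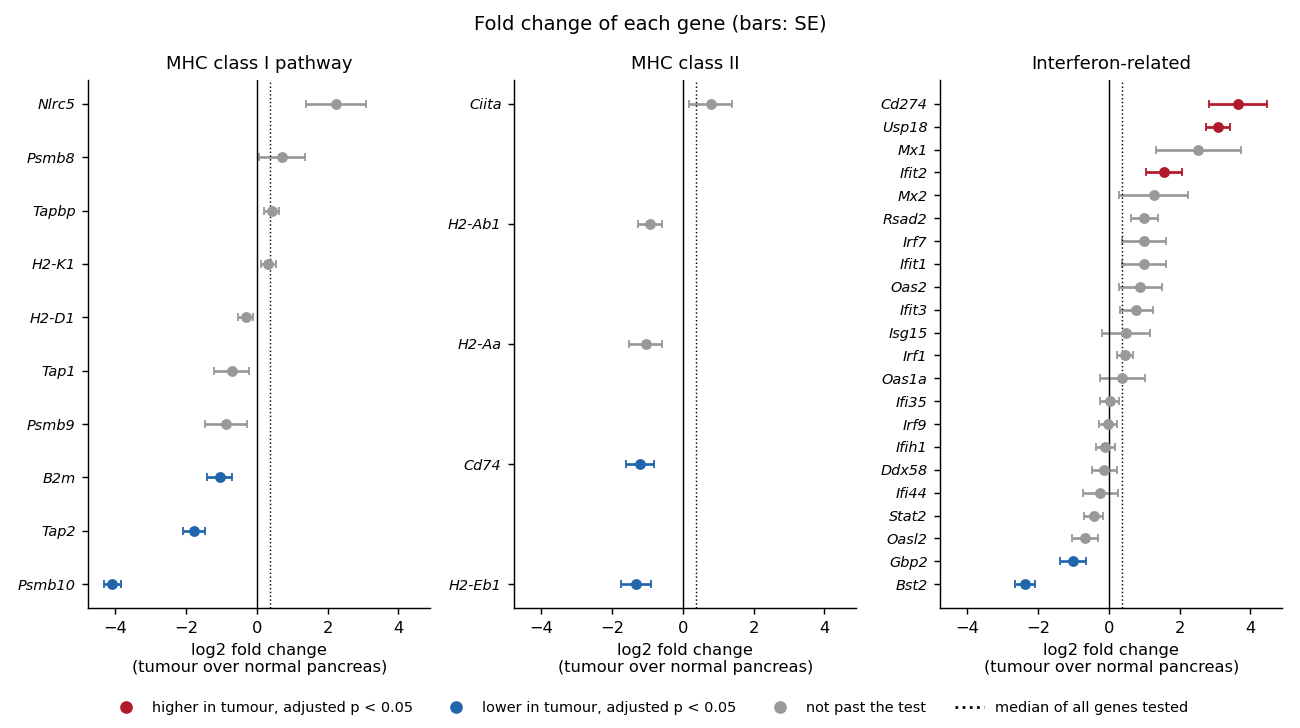
Log2 fold change, tumour over normal pancreas, with its SE for each gene, in the class I, class II and interferon-related groups. The dotted line marks the median of all genes tested, 0.38. Under TMM scaling, values run between -4.09 for Psmb10 and 3.65 for Cd274.

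In the class I pathway, 3 of 10 genes were lower in tumour and 0 were higher by edgeR, with a median log2 fold change of -0.52. Over all genes tested, 27.8% were lower and 39.2% higher, so the share of 30.0% lower is near the background. At an unadjusted p under 0.05, 1 gene was higher, and DESeq2 also called 1 gene higher. The fall was steepest in 1 of the 3 proteasome subunits that interferon gamma induces, while the heavy chains, the most abundant of the 10 RNAs in tumours, did not pass the test. Psmb10, on chromosome 8, encodes the subunit that takes the place of Psmb7 when the immunoproteasome is put together. It had 5.87, 9.97 and 7.34 CPM in tumour replicates 1, 2 and 3, against 137 and 126.7 CPM in normal pancreas replicates 1 and 2. The tumours lay far below both normal pancreata, 17.0-fold lower (log2 fold change -4.09, SE 0.24, edgeR adjusted p = 4.5e-05). Psmb10 was called lower under all 19 alternative settings, with log2 values of -4.41 to -0.90, the smallest fall coming with total counts alone. In the annotation an antisense gene, Gm16156, spans 2710 bases of the gene, with 0 counts in each tumour and 27 and 33 counts in normal pancreas, against 1812 and 1720 for Psmb10 there. The labels do not say whether the libraries keep the strand.

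The other induced subunits did not share that fall. Psmb8, which takes the place of Psmb5, had 3.35, 8.42 and 2.08 CPM in tumours, against 3.86 and 1.84 CPM in normal pancreas, and the groups overlapped (log2 fold change 0.72, SE 0.65, edgeR adjusted p = 0.357). Psmb9, which takes the place of Psmb6, had 1.2, 2.88 and 0.762 CPM in tumours, against 3.78 and 2.28 CPM in normal pancreas. Its groups overlapped through tumour replicate 2, and it did not pass the test (log2 fold change -0.88, SE 0.59, edgeR adjusted p = 0.224). Without tumour replicate 2, Psmb9 passed as lower (log2 fold change -1.57, edgeR adjusted p = 0.0236), and Psmb8 had a log2 fold change of -0.04.

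Each induced subunit was set against the standing subunit it replaces, as a share of the pair's TPM (transcript abundance corrected for length) within a library, which no scaling between libraries can move. These pairs were chosen after the values were seen. Psmb10 made up 33.7%, 43.5% and 32.7% of its pair in tumours, against 88.6% and 88.5% in normal pancreas. The tumours averaged 36.6% ± 5.95 (SD, n = 3) and the normal pancreata 88.6% ± 0.0663 (SD, n = 2), and no tumour came near either normal pancreas. Psmb8 made up 15.4%, 23.7% and 6.46% of its pair in tumours, against 5.80% and 3.23% in normal pancreas, so that the groups did not overlap but tumour replicate 3 stood close to a normal library. Psmb9 made up 3.70%, 6.31% and 1.61% of its pair in tumours, against 4.38% and 2.84% in normal pancreas, and the groups overlapped. The two-sided exact permutation p was 0.1 for Psmb10, 0.2 for Psmb8 and 1 for Psmb9, and 0.1 is the smallest p that 3 against 2 libraries allow. Adjusted over the 10 within-library ratios computed here, these became 0.333, 0.333 and 1. The standing subunits themselves had edgeR log2 fold changes of -1.54 for Psmb5, -0.84 for Psmb6 and -0.68 for Psmb7 (adjusted p = 0.000751, 0.00549 and 0.0153), which turned to 1.63, 2.33 and 2.49 with total counts alone and, for Psmb6 and Psmb7, to 0.64 and 0.67 with limma on log2(TPM + 1).

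**Figure D3:**
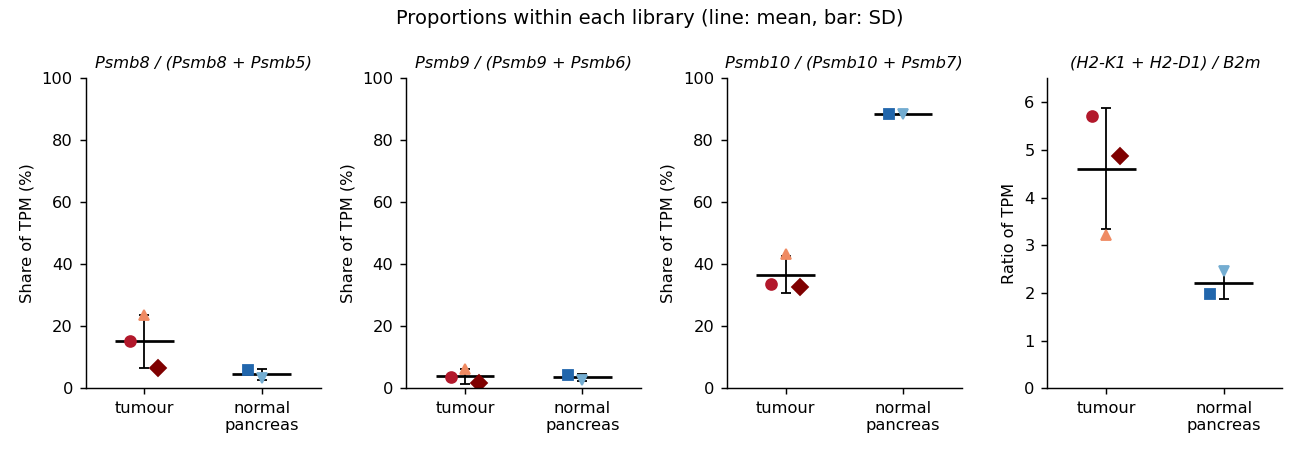
Within-library shares of TPM in percent for the 3 induced proteasome subunits in their pairs, and the TPM ratio of the heavy chains to B2m, for 3 tumours and 2 normal pancreata, with lines at the mean and bars for the SD. The Psmb10 share is 32.7% to 43.5% in tumours, against 88.5% and 88.6% in normal pancreas.

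For peptide transport, 1 of the pump's chains was called and the other was not, and the ratio of both overlapped between the groups. Tap2, one chain of the peptide pump, had 3.91, 7.15 and 3.6 CPM in tumours, against 16.3 and 17.7 CPM in normal pancreas. All tumours lay below both normal pancreata, 3.44-fold lower (log2 fold change -1.78, SE 0.31, edgeR adjusted p = 0.00273), a direction that turned with total counts alone (1.41). Its call held with each of the 5 libraries left out in turn. The call was lost with scaling on the pan-leukocyte markers (log2 fold change -1.95, edgeR adjusted p = 0.116). It was also lost with limma on log2(TPM + 1) (-0.26, adjusted p = 0.381) and on log2(TPM + 0.1) (-0.42, adjusted p = 0.34). A further transcript, Gm15821, overlaps Tap2 on the other strand and had 1, 0 and 2 counts in tumours, against 55 and 84 counts in normal pancreas. Tap1, the other chain, had 4.04, 8.89 and 2.49 CPM in tumours, against 9.75 and 7.37 CPM in normal pancreas. Tumour replicate 2 fell between the normal libraries, and Tap1 did not pass (log2 fold change -0.71, SE 0.50, edgeR adjusted p = 0.241). Without tumour replicate 2 it passed as lower (log2 fold change -1.35, edgeR adjusted p = 0.0100). The TPM ratio of Tap1 to Tap2 was 0.956, 1.11 and 0.646 in tumours, against 0.665 and 0.466 in normal pancreas, and overlapped (exact permutation p = 0.3). Tapbp, which encodes tapasin and holds the heavy chain at the pump, had 47.3, 30.9 and 34.2 CPM in tumours, against 30.9 and 25.4 CPM in normal pancreas, with its lowest tumour just above the upper normal library. It did not pass the test (log2 fold change 0.42, SE 0.22, edgeR adjusted p = 0.137).

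The class I molecule was measured through both heavy chain genes and the light chain. H2-K1 had 163.5, 147 and 113 CPM in tumours, against 126.6 and 98.7 CPM in normal pancreas, and overlapped (log2 fold change 0.33, SE 0.21, edgeR adjusted p = 0.215). H2-D1 had 132, 128.5 and 90.7 CPM in tumours, against 160.6 and 132 CPM in normal pancreas. Tumour replicates 1 and 2 lay close to the lower normal library and tumour replicate 3 further below it, and H2-D1 did not pass (log2 fold change -0.32, SE 0.21, edgeR adjusted p = 0.215). B2m, the light chain gene, had 31.9, 54.2 and 24.4 CPM in tumours, against 91.3 and 61.1 CPM in normal pancreas, so that all tumours were below both. It was 2.06-fold lower (log2 fold change -1.05, SE 0.35, edgeR adjusted p = 0.0354), and its sign turned with total counts alone (2.16) and with limma on log2(TPM + 1) (0.36). The call of B2m was lost without normal pancreas replicate 1 (adjusted p = 0.226), normal pancreas replicate 2 (0.0622), tumour replicate 1 (0.0709) or tumour replicate 3 (0.0772), all with edgeR. In TPM, the heavy chains together stood at 5.71, 3.22 and 4.88 times B2m in tumours, against 1.97 and 2.45 times in normal pancreas, without overlap (exact permutation p = 0.2, 0.333 adjusted over the 10 ratios). The TPM ratio of H2-K1 to H2-D1 was 2.16, 2.10 and 1.87 in tumours, against 1.55 and 1.49 in normal pancreas (exact permutation p = 0.1, the smallest possible, and 0.333 adjusted). H2-K1 and H2-D1 share long stretches of sequence with each other and with the H2-Q and H2-T genes, and H2 genes vary between mouse strains. Their counts depend on how shared reads were split, and the strain is not in the labels.

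Nlrc5, the transactivator of class I genes, had 1.75, 6.10 and 1.04 CPM in tumours, against 0.681 and 0.589 CPM in normal pancreas. All tumours were above both normal pancreata, with tumour replicate 2 far above the other two. It missed the threshold (log2 fold change 2.24, SE 0.86, edgeR adjusted p = 0.0563), and it passed without tumour replicate 1 (log2 fold change 2.53, adjusted p = 0.0384) or tumour replicate 3 (log2 fold change 2.65, adjusted p = 0.0250). Without tumour replicate 2 its log2 fold change was 1.17 (edgeR adjusted p = 0.0810), and with the effective length offset it was 1.0 (edgeR adjusted p = 0.164). The normal libraries held only 9 and 8 counts of it. Ordered by TPM, H2-K1 stood first among the 37 genes in tumours with a mean of 131 TPM, followed by H2-D1 with 63.3 and B2m with 45.1 TPM. In normal pancreas Psmb10 stood first with a mean of 90.1 TPM, followed by H2-K1 with 43, B2m with 33 and H2-D1 with 28.2 TPM. Psmb10 had 11.6 TPM in tumours. These TPM give the order within a group and are not a comparison between the groups. Acinar genes summed to 880000 and 893100 TPM in normal pancreas, against 37.4 to 2123 TPM in tumours.

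In MHC class II, 2 of 5 genes were lower in tumour and 0 were higher by edgeR, with a median log2 fold change of -1.05. DESeq2 called 4 lower and 0 higher, beside 4584 lower and 6498 higher of all 16810 genes. Beside the 27.8% of all genes tested that were lower, 2 of 5 genes is too few to set class II apart. At an unadjusted p under 0.05, 3 were lower and 0 higher. The genes of the class II molecule itself moved together across the libraries, with tumour replicate 2 the highest tumour for all 5 genes. H2-Eb1, a beta chain, had 7.31, 17.8 and 8.31 CPM in tumours, against 34.6 and 21.2 CPM in normal pancreas. The tumours lay below both normal pancreata, 2.49-fold lower (log2 fold change -1.32, SE 0.42, edgeR adjusted p = 0.0286), with the sign turned by total counts alone (1.88) and by limma on log2(TPM + 1) (0.09). Cd74, on chromosome 18, encodes the invariant chain that fills the groove until peptide is loaded. It had 22.7, 50.7 and 26.9 CPM in tumours, against 100.3 and 54.1 CPM in normal pancreas, and tumour replicate 2 came close to normal pancreas replicate 2. Cd74 was 2.31-fold lower (log2 fold change -1.21, SE 0.40, edgeR adjusted p = 0.0347), again with the sign turned by total counts alone (1.99) and by limma on log2(TPM + 1) (0.25).

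H2-Aa, the alpha chain of the A molecule, had 9.94, 27.2 and 11.4 CPM in tumours, against 41.4 and 25.9 CPM in normal pancreas, and overlapped through tumour replicate 2 (log2 fold change -1.05, SE 0.46, edgeR adjusted p = 0.0805). H2-Ab1, its partner beta chain, had 11.7, 22.7 and 11.2 CPM in tumours, against 35.0 and 23.2 CPM in normal pancreas. Its tumours were below both normal pancreata by a small margin, and it missed the threshold (log2 fold change -0.93, SE 0.35, edgeR adjusted p = 0.0522). Ciita, the transactivator on which class II transcription depends, was at a low level, with 1.22, 2.94 and 1.04 CPM in tumours, against 1.29 and 0.737 CPM in normal pancreas. It overlapped and did not pass (log2 fold change 0.79, SE 0.61, edgeR adjusted p = 0.280), and in the annotation it overlaps Dexi on the other strand, which had 45 to 106 counts in tumours and 408 and 413 in normal pancreas.

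The class II calls turned on single libraries. H2-Eb1 was lost without normal pancreas replicate 1 (edgeR adjusted p = 0.196), normal pancreas replicate 2 (0.0510) or tumour replicate 3 (0.0810). Cd74 was lost without normal pancreas replicate 1 (edgeR adjusted p = 0.267), tumour replicate 1 (0.0622) or tumour replicate 3 (0.0981). Without tumour replicate 2, H2-Aa and H2-Ab1 also passed (edgeR log2 fold changes -1.66 and -1.33, adjusted p = 0.00182 and 0.00266). That made 4 of 5 class II genes lower, as also when tumour replicates 1 and 2 were summed to 1 library. Over all genes tested, 4823 of 16859 were lower without tumour replicate 2, and 5126 of 17804 with the sum. Within a library the chains kept close proportions. The TPM of Cd74 over that of the 3 chains was 0.716, 0.719 and 0.778 in tumours, against 0.825 and 0.698 in normal pancreas (exact permutation p = 0.7). H2-Aa over H2-Ab1 was 0.823, 1.14 and 0.996 in tumours, against 1.19 and 1.17 in normal pancreas (exact permutation p = 0.2, 0.333 adjusted over the 10 ratios).

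Leukocytes carry most class II RNA in many tissues, so their markers stand beside these values. In bulk samples, fewer cells of a type and less RNA per cell cannot be told apart. The 12 pan-leukocyte markers summed to 52.7, 150 and 42.0 CPM in tumours, against 108.7 and 76.7 CPM in normal pancreas. The 5 class II genes summed to 52.9, 121 and 58.8 CPM in tumours, against 212.6 and 125.1 CPM in normal pancreas. In these CPM, tumour replicate 2 lay above both normal pancreata in leukocyte markers and, by a small margin, below the lower one in class II genes. In TPM the 5 class II genes of tumour replicate 2 summed to 106.2, above the 65.1 and 36.8 of normal pancreas. Acinar genes took 880000 and 893100 TPM in normal pancreas, against 37.4 to 2123 TPM in tumours. These TPM sums are thus not a comparison between the groups, and the CPM sums depend on the TMM scaling. Of the 12 pan-leukocyte markers, 1 was higher (Ptprc), 2 were lower (Lcp1 and Ptpn6, both above 0 with total counts alone and with limma on log2(TPM + 1)) and 9 did not pass by edgeR. The 12 macrophage markers summed to 118.9 to 185.4 CPM in tumours, against 98.5 and 183.6 CPM in normal pancreas, and 0 were called by edgeR, with 1 higher and 1 lower at an unadjusted p under 0.05 and likewise with DESeq2.

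The markers of lymphocytes also set tumour replicate 2 apart. B and plasma cell markers summed to 14.8, 94.0 and 13.3 CPM in tumours, against 12.3 and 3.31 CPM in normal pancreas. Jchain, a plasma cell gene, made up 13.3, 70.0 and 12.4 CPM of these sums in tumours, against 3.33 and 1.11 CPM in normal pancreas. The other 6 markers summed to 1.41, 24 and 0.900 CPM in tumours, against 9.0 and 2.21 CPM in normal pancreas, so that without Jchain tumour replicates 1 and 3 were below both normal pancreata. T and NK cell markers summed to 1.57, 15.6 and 0.900 CPM in tumours, against 2.80 and 1.25 CPM in normal pancreas. Dendritic cell markers summed to 6.33, 15.5 and 5.82 CPM in tumours, against 13.6 and 16.9 CPM in normal pancreas, where Zbtb46 alone gave 12 and 15.8 CPM. Without Zbtb46 they summed to 4.25, 13.2 and 3.19 CPM in tumours, against 1.59 and 1.03 CPM in normal pancreas, which turns the direction. Of the 3 dendritic cell markers tested, Itgax was called higher by edgeR (adjusted p = 0.000364). It had 122, 103 and 39 counts in tumours, against 2 and 1 counts in normal pancreas. Zbtb46 was called lower under TMM scaling (log2 fold change -2.60, edgeR adjusted p = 0.000128), and Flt3 did not pass (edgeR adjusted p = 0.0867). Defining markers with 0 counts in both normal pancreata were Flt3 and Clec9a of dendritic cells, Cr2 of B cells and Prf1 of T and NK cells. Among the tumours, replicate 2 had the highest CPM for 27 of the 37 genes (7 of 10 class I, 5 of 5 class II and 15 of 22 interferon-related), for 12 of 12 pan-leukocyte markers and for 0 of 8 endothelial markers. The part of leukocytes in the class I and interferon-related values was not tested.

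Relative to the pan-leukocyte markers, every tumour lay below both normal pancreata in class II RNA. The TPM of H2-Aa, H2-Ab1, H2-Eb1 and Cd74 over that of the 12 pan-leukocyte markers was 1.75, 1.22 and 2.28 in tumours, against 3.70 and 3.24 in normal pancreas (exact permutation p = 0.1, the smallest possible, and 0.333 adjusted over the 10 ratios). For H2-K1 and H2-D1 the same ratio was 8.82, 2.52 and 6.80 in tumours, against 4.49 and 5.61 in normal pancreas, and it overlapped (exact permutation p = 0.7). With libraries scaled on the pan-leukocyte markers, the class II median was -1.17 with 0 genes called, and the class I median was -0.61 with 1 gene lower, which was Psmb10.

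**Figure D4:**
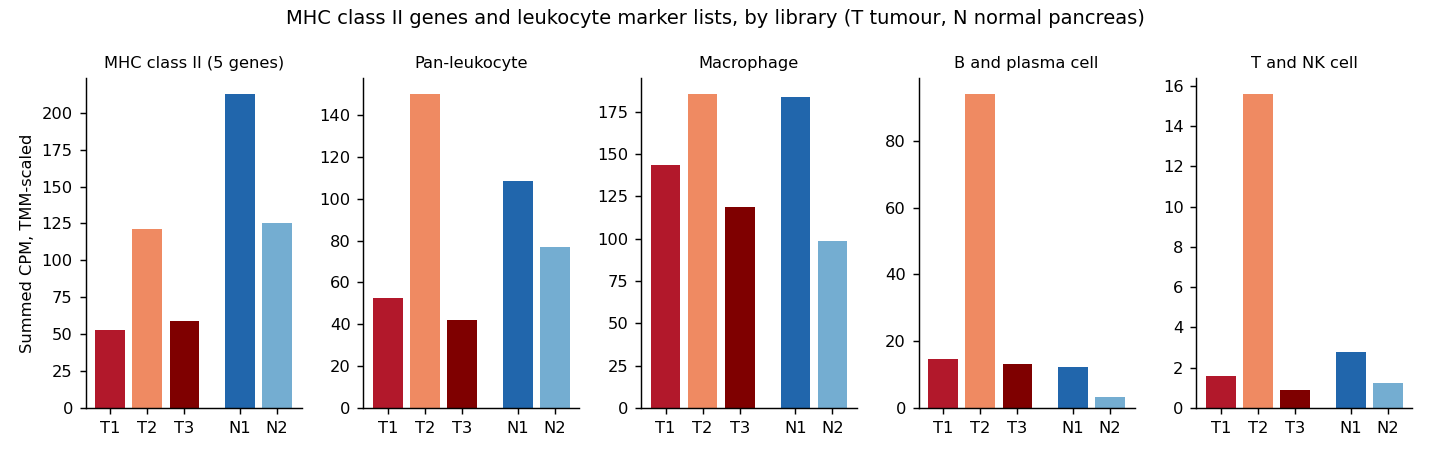
Summed CPM of the 5 class II genes and of 4 leukocyte marker lists in tumour replicates 1 to 3 (T1 to T3) and normal pancreas replicates 1 and 2 (N1 and N2), each panel with its own axis from 0. T2 is the highest tumour in every panel, with 121 CPM of class II genes against 212.6 and 125.1 CPM in N1 and N2.

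Of the 22 interferon-related genes, 3 were higher in tumour (13.6%), 2 were lower (9.09%) and 17 did not pass by edgeR, beside 39.2% and 27.8% over all genes tested, with a median log2 fold change of 0.47. Their CPM summed to 70.2, 95.3 and 69.1 in tumours, against 72.6 and 65.3 in normal pancreas. The 6 factors and sensors were called in neither direction, with a median of -0.07, and 0 of them had an unadjusted p under 0.05 or a call by DESeq2. Stat2, a factor of the type I interferon pathway, had 4.73, 4.49 and 3.39 CPM in tumours, against 6.58 and 4.86 CPM in normal pancreas (log2 fold change -0.43, edgeR adjusted p = 0.176). Irf1, a factor induced by interferon gamma, had 12.6, 12.1 and 8.45 CPM in tumours, against 7.64 and 8.62 CPM in normal pancreas, and overlapped through tumour replicate 3 (log2 fold change 0.45, edgeR adjusted p = 0.111). It passed as higher without that library (log2 fold change 0.63, edgeR adjusted p = 0.0260).

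Among the 16 effector genes, 3 were higher (18.8%) and 2 were lower (12.5%), and the median was 0.84. Both shares lay below the 39.2% and 27.8% over all genes tested, whose median was 0.38. Usp18, on chromosome 6, encodes the protease that takes the ubiquitin-like ISG15 off proteins and damps signalling at the type I interferon receptor. It had 7.12, 7.90 and 12 CPM in tumours, against 1.06 and 1.03 CPM in normal pancreas. Every tumour stood far above both normal pancreata, 8.52-fold higher (log2 fold change 3.09, SE 0.34, edgeR adjusted p = 0.000407). Usp18 was called higher under all 19 alternative settings, with log2 values of 2.28 to 6.24. In CPM it was also the 1 gene of the 37 whose highest tumour was replicate 3. In TPM its tumours stood closer together, at 4.58, 4.46 and 5.37. Which cells carried the Usp18 RNA was not tested. Isg15 itself, the modifier that Usp18 removes, had 0.399, 1.27 and 0.693 CPM in tumours, against 0.756 and 0.368 CPM in normal pancreas, and overlapped (log2 fold change 0.49, edgeR adjusted p = 0.543).

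Cd274, on chromosome 19, encodes PD-L1, the ligand of the T cell checkpoint receptor PD-1. It had 3.40, 18.5 and 12.2 CPM in tumours, against 0.756 and 1.03 CPM in normal pancreas, so that all tumours were above both, with a wide spread among them. It was 12.6-fold higher (log2 fold change 3.65, SE 0.82, edgeR adjusted p = 0.00781), with 128 to 597 counts in tumours and 10 and 14 in normal pancreas. The log2 value stayed above 0 under all 19 settings, between 1.61 and 6.82. The call was lost without normal pancreas replicate 1 (log2 fold change 3.45, edgeR adjusted p = 0.0635) or normal pancreas replicate 2 (log2 fold change 3.91, edgeR adjusted p = 0.0523). Ifit2, which binds viral RNA, had 1.62, 3.62 and 2.7 CPM in tumours, against 0.605 and 1.18 CPM in normal pancreas, and its tumours lay above both (log2 fold change 1.56, SE 0.52, edgeR adjusted p = 0.0358). Its call was lost without normal pancreas replicate 1 (edgeR adjusted p = 0.184), normal pancreas replicate 2 (0.0587), tumour replicate 2 (0.0784) or tumour replicate 3 (0.0681).

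Bst2, on chromosome 8, encodes tetherin, which holds budding virus at the cell surface. It had 2.76, 4.40 and 2.49 CPM in tumours, against 19.4 and 14.4 CPM in normal pancreas. The tumours were 5.17-fold lower (log2 fold change -2.37, SE 0.28, edgeR adjusted p = 0.000588) and below both normal pancreata, and the sign turned with total counts alone (0.82). It was called lower under the other 18 settings. Gbp2, a GTPase induced by interferon gamma, had 1.70, 2.82 and 1.73 CPM in tumours, against 5.14 and 3.39 CPM in normal pancreas. It was 2.03-fold lower (log2 fold change -1.02, SE 0.36, edgeR adjusted p = 0.0432), with the sign turned by total counts alone (2.16) and by limma on log2(TPM + 1) (0.15). Its call was lost without normal pancreas replicate 1 (edgeR adjusted p = 0.267), normal pancreas replicate 2 (0.0647), tumour replicate 1 (0.0885) or tumour replicate 3 (0.110).

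Other effectors lay near the threshold or had few counts. Rsad2, which encodes viperin, had 2.76, 3.41 and 2.08 CPM in tumours, against 1.13 and 1.62 CPM in normal pancreas, with no overlap (log2 fold change 1.0, SE 0.38, edgeR adjusted p = 0.0536), and it passed without tumour replicate 3 (adjusted p = 0.0436). Oasl2, of the oligoadenylate synthetase family, had 1.91, 2.57 and 1.32 CPM in tumours, against 3.02 and 3.24 CPM in normal pancreas (log2 fold change -0.68, edgeR adjusted p = 0.141). Mx1, an antiviral GTPase, had 12, 42 and 5 counts in tumours, against 0 and 3 counts in normal pancreas (edgeR adjusted p = 0.104). Mx2, its paralog, had 16, 9 and 6 counts in tumours, against 4 and 0 counts in normal pancreas, did not pass (edgeR adjusted p = 0.279) and passed without normal pancreas replicate 1 (adjusted p = 0.0426), where the remaining normal library is at 0. These counts are too low for the sizes of the Mx1 and Mx2 differences to be read. In the annotation Mx1 and Mx2 are typed as polymorphic pseudogenes, and the strain is not in the labels. Ifi44 had 0.558, 0.743 and 0.485 CPM in tumours, against 0.907 and 0.516 CPM in normal pancreas (log2 fold change -0.24, edgeR adjusted p = 0.687). The remaining 9 interferon-related genes, Irf7, Irf9, Ddx58, Ifih1, Ifit1, Ifit3, Oas1a, Oas2 and Ifi35, had log2 fold changes of -0.13 to 1.0 and edgeR adjusted p-values of 0.168 to 0.943. The Ifit, Oas1 and Mx genes have close paralogs, between which shared reads were split.

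The wider pathways were read from lists of genes outside the 37. Of 16 other class I pathway genes, 7 were higher (43.8%) and 2 were lower (12.5%) by edgeR, with a median log2 fold change of 0.44, beside 39.2%, 27.8% and 0.38 over all genes tested. Erap1, which trims peptides in the endoplasmic reticulum, was higher (log2 fold change 1.09, edgeR adjusted p = 0.00131), as were the lipid-presenting Cd1d1 (2.11, 0.00742) and H2-M3 (1.66, 0.0162), which presents bacterial peptides. H2-T22 (-2.41, 0.000297) and Mr1 (-1.88, 0.00361), which presents vitamin B metabolites, were lower, and both turned above 0 with total counts alone. Of 8 other class II genes tested, 2 were higher (25%) and 3 were lower (37.5%), beside the same shares over all genes. Rfx5 (1.41, 0.00666), a subunit of the factor that binds class II promoters, and the protease gene Ctss (1.43, 0.00882), whose product digests the invariant chain, were higher. Ifi30 (-2.90, 0.000967), a lysosomal thiol reductase, and the partners of Rfx5, Rfxap (-0.73, 0.0165) and Rfxank (-1.11, 0.0185), were lower, and these 3 turned above 0 with total counts alone.

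Of 53 other interferon-induced genes tested, 9 were higher (17.0%) and 6 were lower (11.3%) by edgeR, both below the 39.2% and 27.8% over all genes tested, with a median log2 fold change of 0.27. The members with the smallest p among those higher were Rnf213 (log2 fold change 2.55, edgeR adjusted p = 0.000281), Lgals3bp (2.41, 0.0006) and Herc6 (2.02, 0.00499), the last encoding the ligase that attaches ISG15 in mouse. Among those lower they were the membrane protein gene Ifitm3 (-3.01, 0.000115), Ifi27 (-3.41, 0.000129) and Cmpk2 (-1.67, 0.000645), a mitochondrial nucleotide kinase, and with total counts alone Ifitm3 and Cmpk2 turned above 0. Of 20 receptor and signalling genes, 3 were higher (15.0%) and 7 were lower (35.0%), beside 39.2% and 27.8% over all genes tested, with a median of -0.18. Adar (log2 fold change 1.19, edgeR adjusted p = 0.000683), which edits double-stranded RNA, the receptor chain gene Ifnar1 (0.90, 0.00277) and the RNA sensor gene Tlr3 (0.98, 0.0296) were higher. The receptor chain gene Il10rb (-2.27, 0.000102), the adaptor gene Mavs (-2.04, 0.000331) and Irf3 (-1.46, 0.00101) were lower, and all 3 turned above 0 with total counts alone. The 20 interferon genes listed, among them Ifnb1 and Ifng, had 0 counts in all 5 libraries. A floor of 3 counts over the group allows each of them up to 0.0356 CPM in tumours and 0.112 CPM in normal pancreas, a limit that covers counting error only.

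**Figure D5:**
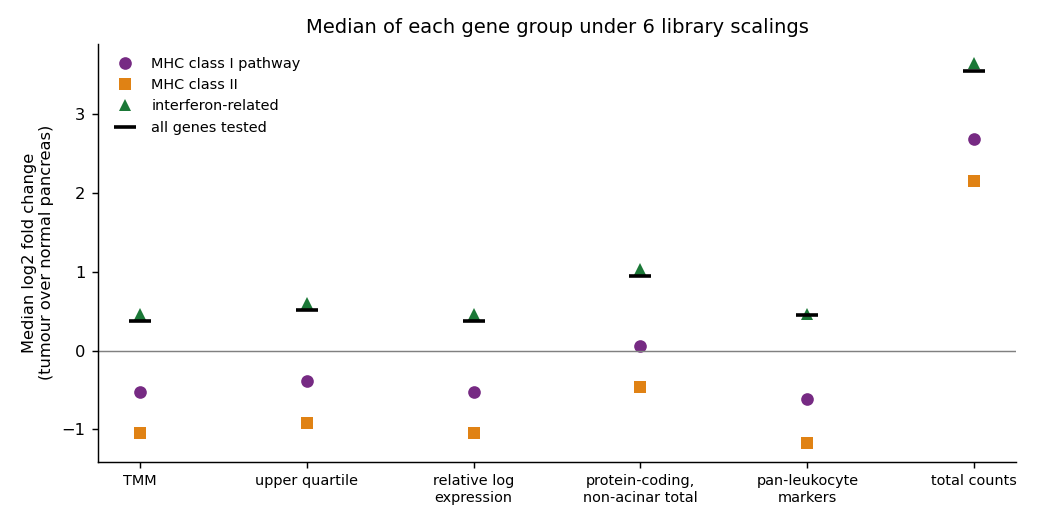
Median log2 fold change, tumour over normal pancreas, of the class I, class II and interferon-related genes and of all genes tested (dashes) under 6 scalings of the libraries. With total counts alone all 4 medians are above 0, while under TMM those of class I and class II are below 0.

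Apart from scaling on the pan-leukocyte markers, a change of scaling moved the medians by nearly the same amount. Such a shift can turn the sign of a median but says nothing of the order of the groups. Under pan-leukocyte scaling the medians were -0.61 for class I, -1.17 for class II and 0.46 for interferon-related genes, with 0.45 for all genes. The medians were -0.52 for class I, -1.05 for class II and 0.47 for interferon-related genes under TMM, with 0.38 for all genes. With library sizes from protein-coding genes outside the acinar list they were 0.06, -0.46 and 1.04, with 0.94 for all genes. With total counts alone they were 2.68, 2.15 and 3.65, with 3.55 for all genes. Calls among all genes were 58.5% higher under TMM, 74.8% higher with protein-coding genes outside the acinar list and 97.5% higher with total counts alone.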

How the data were processed

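RNA sequencing of total RNA measured 3 tumours and 2 normal pancreata, grouped by their tissue label. The submitters' processing notes name Trim Galore 0.60, STAR 2.7, RSEM 1.31, mm10 and GRCm38, without an annotation release. The authors deposited, for each gene, an expected count, which shares ambiguous reads out between genes, and TPM values, which sum alike in every library. The effective gene lengths in the deposited library files, a value of another kind, served only for the length offset. The 92 spike-in rows, at 0 counts throughout, were dropped.

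The main test was that of edgeR 4.0.16 (R 4.3.3) on rounded expected counts (glmQLFit, glmQLFTest, TMM, filterByExpr at its defaults, Benjamini-Hochberg over 16810 genes, threshold 0.05, no covariates). Log2 fold changes are tumour over normal pancreas, and the SE is the log2 fold change over the square root of F. CPM are counts over TMM-scaled library sizes. TPM served for levels between genes and for ratios within a library, compared by exact permutation tests over the 10 splits. Library totals give the depth, and 4 of the 37 genes had under 10 counts in both normal libraries, which limits their precision. Alternatives were other scalings, filters and tests (DESeq2 1.42.0, limma 3.58.1 on log2(TPM + 1) and log2(TPM + 0.1)), a length offset, a test against a fold change of 2, tumour replicates 1 and 2 summed, and each library left out. The code was tested on simulated data. Gene coordinates are from GENCODE M21 on GRCm38. Genes were named by rule: all class I and class II genes, interferon-related genes whose call turns on 1 library or with up to 5 smallest p in each direction, and up to 3 per direction from the other lists. The genes and lists were chosen with earlier results of these data known.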

Additional observations from a re-analysis of the deposited data

How the results depend on the processing

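Of the 10 calls, Psmb10 and Usp18 kept theirs under all 19 alternatives, Bst2 under 18, Cd274 under 17 and Tap2 under 15, while Ifit2 kept its call under 13, H2-Eb1 under 10, B2m and Cd74 under 8 each and Gbp2 under 6. The counts of genes called were 0 higher and 3 lower in class I, 0 higher and 2 lower in class II, and 3 higher and 2 lower among interferon-related genes. With total counts alone these were 9 and 1, 5 and 0, and 21 and 0. Over all 16810 genes tested, 15681 were higher and 398 lower with that scaling. With limma on log2(TPM + 1), class I gave 4 and 1, class II 0 lower, and interferon-related genes 13 and 1, beside 10665 and 1173 of all genes. With log2(TPM + 0.1) they gave 4 and 1, 1 and 0, and 16 and 1, beside 11558 and 1192 of all genes. With protein-coding genes outside the acinar list, class I gave 3 higher, class II 0 lower, and interferon-related genes 6 and 1. Over all genes, 8582 were higher and 2887 lower with these library sizes. Upper-quartile factors and the effective length offset each gave 1 class I gene higher, 1 class II gene lower and 1 interferon-related gene lower. Over all genes they gave 7042 and 6283 higher and 4234 and 4374 lower. Scaling on leukocyte markers gave 1 class I, 0 class II and 1 interferon-related gene lower, beside 925 of all genes. Without a filter 1 class I gene was higher and 1 interferon-related gene lower, beside 6809 and 4740 of 26671 genes. DESeq2 gave 1 class I gene higher and 4 class II genes lower, beside 6498 and 4584 of 16810 genes. The test against a fold change of 2 gave 0 class II and 1 interferon-related gene lower, beside 2374 of 16810 genes. With tumour replicates 1 and 2 summed, 2 class I genes were higher and 4 class II genes lower, beside 7449 and 5126 of 17804 genes. Leaving out 1 library gave 0 to 1 class I genes higher and 2 to 5 lower, 0 to 4 class II genes lower, and 1 to 4 interferon-related genes higher and 1 to 2 lower.

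The following log2 fold changes changed sign. With total counts alone, whose construction leaves in the acinar counts, they were 2.87 for H2-D1, 2.16 for B2m, 2.50 for Tap1, 1.41 for Tap2, 2.32 for Psmb9, 2.15 for H2-Aa, 2.27 for H2-Ab1, 1.88 for H2-Eb1, 1.99 for Cd74, 2.75 for Stat2, 3.17 for Irf9, 3.07 for Ddx58, 3.08 for Ifih1, 2.52 for Oasl2, 2.93 for Ifi44, 0.82 for Bst2 and 2.16 for Gbp2. With limma on log2(TPM + 1), and then on log2(TPM + 0.1), they were 1.10 and 1.12 for H2-D1, 0.36 and 0.37 for B2m, 0.18 and 0.22 for Tap1, 0.35 and 0.55 for Psmb9, 0.24 and 0.25 for H2-Aa, 0.48 and 0.52 for H2-Ab1, 0.085 and 0.088 for H2-Eb1, 0.25 and 0.26 for Cd74, 0.92 and 1.76 for Stat2, 0.85 and 1.29 for Irf9, 0.72 and 1.32 for Ddx58, 0.49 and 1.16 for Ifih1, 0.35 and 0.69 for Oasl2, 0.11 and 0.52 for Ifi44, and 0.15 and 0.33 for Gbp2. With protein-coding genes outside the acinar list they were 0.24 for H2-D1, 0.13 for Stat2, 0.54 for Irf9, 0.43 for Ddx58, 0.45 for Ifih1 and 0.33 for Ifi44. Smaller turns were 0.11 for Irf9, 0.0098 for Ddx58 and 0.032 for Ifih1 with upper-quartile factors, 0.53 for Stat2 and 0.10 for Ddx58 with the length offset, and 0.026 for Ifih1 with leukocyte scaling. Irf9 was at 0.018 with 10 or more counts in 3 libraries, 0.024 without a filter and 0.0069 with protein-coding genes alone. With 1 library left out, values ran from -0.037 to 1.34 for Psmb8, -0.17 to 0.18 for Irf9, -0.49 to 0.12 for Ddx58, -0.27 to 0.046 for Ifih1, -0.10 to 1.09 for Isg15, -0.22 to 1.48 for Oas1a, -0.57 to 0.22 for Ifi44 and -0.12 to 0.21 for Ifi35. In TPM, on which the limma fits were run, the acinar genes summed to 880000 and 893100 in normal pancreas, against 37.4 to 2123 in tumours. The cause of the turns outside total counts was not tested.

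No paired analysis was possible because the labels give no replicate numbers shared by tumours and normal pancreata. With 3 against 2 libraries, an exact permutation test cannot pass 0.05. Nlrc5, Oas2, Mx1 and Mx2 had under 10 counts in both normal libraries, and Isg15, Oas1a, Oas2, Mx1, Mx2 and Ifi44 had under 100 counts over all libraries, which limits the precision of their values. A fit with 1 normal library left assumes that it varies like the tumours.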
